A study of Mus musculus with 4 samples.

Results

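The genes described are the replication-dependent histone genes that lie in clusters in the mouse genome, found by array names that begin with Hist1h, Hist2h, Hist3h or Hist4h. The array named 49 such genes. Where a gene had several probes the brightest was taken, and 40 genes had a probe flagged well above background on each of the 4 arrays. Those 40 are described here, out of 18256 genes of any kind that met the same flag rule among 34795 on the array. They comprise 4 H1 linker histones, 12 H2A, 8 H2B, 7 H3 and 9 H4 genes. The Hist1 cluster on chromosome 13 gave 30 of them and the Hist2 cluster on chromosome 3 gave 8, with Hist3h2a on chromosome 11 and Hist4h4 on chromosome 6.

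RNA came from adipocytes of 3T3-L1, an established mouse fibroblast line that becomes fat cells in culture. The adipocytes were differentiated first and then kept for 7 days in 1 of 4 conditions, with 1 array each: 25 uM daidzein, a soy isoflavone, together with 100 ug/ml PT, an extract of pig testis; daidzein alone; PT alone; and PBS as the control. The labels do not say whether an array stood for 1 culture or a pool. With 1 array per group, differences have no replicate check and carry no p-value. Each agent was seen in a pair of comparisons that share no array, daidzein as daidzein over PBS and as daidzein+PT over PT, and PT likewise.

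Core histones (H2A, H2B, H3 and H4) form the spool that DNA winds around, and H1 binds the linker between spools. Most clustered histone genes are transcribed in S phase. Their mRNAs usually end in a short stem-loop, bound by SLBP, in place of a poly(A) tail, and some of the genes also give longer, polyadenylated transcripts that run beyond the stem-loop. Labelling kits of the kind used here start cDNA synthesis from a poly(A) tail, so the place of a probe relative to the stem-loop is given beside its values.

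The probe stretches that hold the histone stem-loop motif are shown first because they divide the probes. The motif was searched whole or as its opening or closing part at any place in a probe, and its letters are in capitals. Each line gives 30 bases of a 60-base probe, with mm9 coordinates.
Hist2h2aa1 at chr3:96049949-96049978 on the plus strand: taaaaaGGCTCTTTTCAGAGCCacccactg
Hist1h4m at chr13:21903990-21904019 on the plus strand: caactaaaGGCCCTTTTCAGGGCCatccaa
Hist2h2bb at chr3:96074086-96074115 on the plus strand: acccaaaaGGCTCTTTTCAGAGCCacttta
Hist1h2ab at chr13:23843422-23843451 on the plus strand: gaaagttaaccaaaacaaaGGCTCTTTTCA
Hist1h2ae at chr13:23662519-23662548 on the minus strand: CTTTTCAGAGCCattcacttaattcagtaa
The Hist1h2ab probe ends inside the motif. The Hist1h2ae probe begins inside it and was not well above background on any array. On the sense strand the motif was in 8 of the 55 probes of clustered histone genes (14.5%) and in 0.0629% of all 55681 probes. On the other strand it was in 0 of the 55, and in 0.0718% of all probes.

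Among core histone probes the motif began no later than base 542 of a transcript. A core histone probe starting beyond base 542, or an H1 probe starting beyond base 1000, is called distal here. Both lines were drawn after the values had been seen. The line at base 542 comes from other genes' transcripts, since the stem-loop of each gene's own transcript was not read. The H1 line was set by choice, as no H1 probe held the motif. By these lines 10 members had a distal probe, 6 held the motif and 24 had another probe. The 10 were Hist1h1c, Hist1h2ac, Hist3h2a, Hist1h2bc, Hist1h2be, Hist1h2bg, Hist1h2bq, Hist2h2be, Hist2h3c2-ps and Hist1h4i. The opening 30 bases of the distal probes of Hist1h4i and Hist1h2bc are printed because these genes were among the highest with daidzein; no motif is marked in them.
Hist1h4i at chr13:22132621-22132650 on the minus strand: gggaatcccaatagagccttctgcttggga
Hist1h2bc at chr13:23784254-23784283 on the plus strand: gctgcaaaattaagatgctcctagcaaaag
The letters AATAAA or ATTAAA, the usual signal for adding a poly(A) tail, were on the sense strand of 1 of the 10 distal probes (Hist1h2be), 0 of the 6 that held the stem-loop motif and 1 of the other 24 (Hist1h2ag). They were in 13.7% of all probes on that strand, and in 6.14% on the other.

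Several H2A genes have nearly the same coding sequence, and the probes of 6 H2A members end at the stop codon. The 4 printed whole show how alike they are, with capitals at the bases that differ from Hist1h2af.
Hist1h2af at chr13:23626113-23626172 on the plus strand: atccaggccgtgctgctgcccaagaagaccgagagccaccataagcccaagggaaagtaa
Hist1h2ak at chr13:21845304-21845363 on the minus strand: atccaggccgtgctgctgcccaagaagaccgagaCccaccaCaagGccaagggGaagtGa
Hist1h2an at chr13:21878695-21878754 on the minus strand: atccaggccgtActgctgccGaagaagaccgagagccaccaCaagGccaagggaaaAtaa
Hist2h2aa2 at chr3:96049837-96049896 on the plus strand: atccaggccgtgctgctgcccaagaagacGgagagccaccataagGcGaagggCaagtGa
Each of the last 3 lines differs from the Hist1h2af line at 5 of 60 bases. Over all members, 14 pairs of probes among 10 members matched at 45 or more bases, with 55 as the highest. The mRNAs of these genes may bind each other's probes, so their values are not independent and cannot be assigned to single genes with certainty. Probes were compared only with each other, shifted by at most 20 bases. An mRNA that matches a member's probe at another place would be missed. Other members, among them H2B and H4 genes, may thus share this limit.

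Levels below are scaled signals, which are the scanner's processed intensities after each array was set to the same 75th percentile. Differences are on the log2 scale. The only gauge of spread is the interaction, that is the daidzein difference with PT minus the daidzein difference without it. Taken over all genes it gave an SD for a difference between 2 arrays of 0.33 in the dimmest tertile of genes, 0.14 in the middle tertile and 0.11 in the brightest. Of the members 13 lay in the dimmest tertile, 10 in the middle and 17 in the brightest.

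Daidzein divided the clustered histone genes. H2B and H4 genes were mostly higher on the daidzein arrays, most H1 genes were lower, and H2A and H3 genes stood between. At 1.5-fold or more, 5 of 40 members were higher in daidzein than in PBS, where 3.01% of all genes were, and 2 of 40 were lower, where 2.27% were. Of the 40, 22 were above 0 in that comparison (43.9% of all genes) and 18 below 0 (56.1%). In daidzein+PT over PT, 13 of 40 members were at least 1.5-fold higher, against 4.74% of all genes, and 0 of 40 were as much lower, against 3.48%. There 30 of 40 were above 0 (48.4% of all genes) and 10 below 0 (51.6%). All 5 members that were 1.5-fold higher in daidzein over PBS were also so in daidzein+PT over PT. So were 362 of the 550 genes of any kind that passed in daidzein over PBS. Both pairs were passed by 12.5% of members and 1.98% of all genes. Because whole cultures were sampled, more histone mRNA per cell and more cells that make it cannot be told apart.

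**Figure D1:**
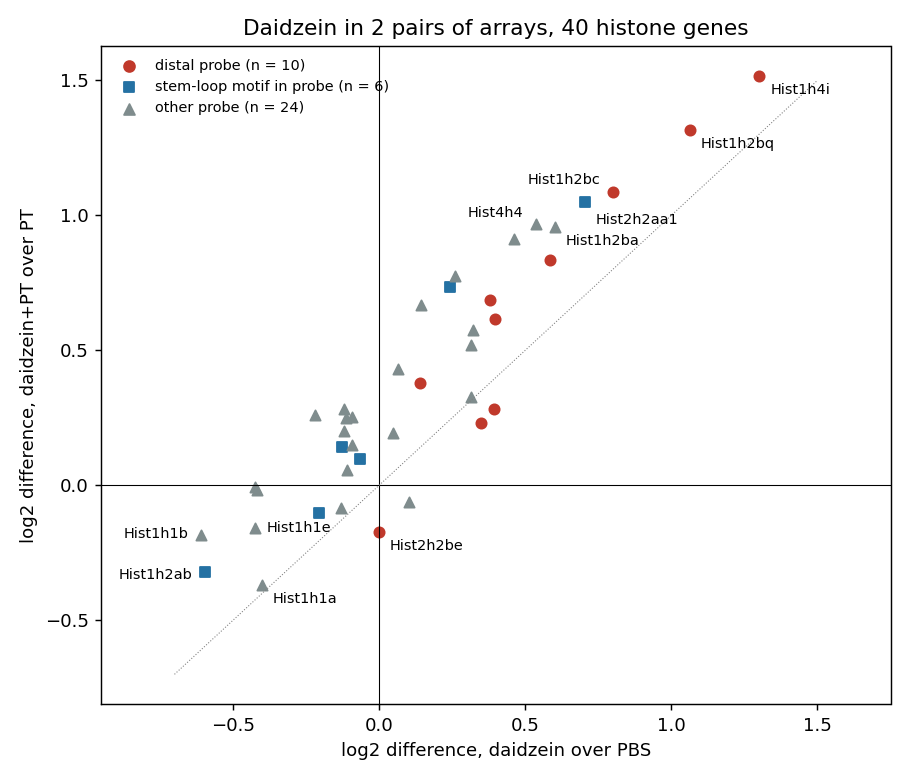
Log2 difference of daidzein+PT over PT (vertical axis) against daidzein over PBS (horizontal axis) for the 40 clustered histone genes, 1 point per gene, with colour and shape for the place of the probe. Hist1h4i lies highest at 1.52 and 1.30, the lowest corner holds Hist1h1a, Hist1h1b and Hist1h2ab, and most points lie above the dotted line where the pairs would be equal.

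The highest was an H4 gene. Hist1h4i, now named H4c9, had a scaled signal of 3253 in daidzein+PT, 2357 in daidzein, 1137 in PT and 957 in PBS. Both daidzein arrays stood above both arrays without it. The difference was 1.52 for daidzein+PT over PT (2.86-fold) and 1.30 for daidzein over PBS (2.46-fold). Its 2 other probes start at bases 24 and 484, before the line at which a core histone probe is called distal here. Both gave smaller differences of the same sign, at 1.20 and 0.81 with PT and 0.78 and 0.41 without it. The only H4 probe that held the stem-loop motif, that of Hist1h4m, starts at base 346. The probe at base 484 may thus lie beyond the stem-loop of Hist1h4i, whose own position was not read.

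Other H4 genes encode the same core protein and were read by probes that are not distal. Hist4h4 stood at 603 in daidzein+PT, 480 in daidzein, 308 in PT and 331 in PBS. Hist2h4 stood at 3140 in daidzein+PT, 2384 in daidzein, 1835 in PT and 1992 in PBS. Hist1h4k stood at 3865 in daidzein+PT, 2871 in daidzein, 2434 in PT and 2600 in PBS. In these 3 genes the daidzein+PT array was the highest and the PT array the lowest. A dim second probe of Hist2h4, well above background on 2 arrays, ran the other way at -0.12 for daidzein+PT over PT and -0.65 for daidzein over PBS. Both probes of Hist1h4k were close, at 0.67 and 0.64 with PT. Hist1h4c was lower than its PBS signal of 279 on every other array, at 251 in daidzein+PT, 258 in daidzein and 211 in PT. Over the 9 H4 genes the median was 0.67 for daidzein+PT over PT, with 8 above 0, and 0.26 for daidzein over PBS, with 7 above 0.

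The H2B genes were the highest class with daidzein. Hist1h2bc, the brightest H2B gene by its mean signal, stood at 15981 in daidzein+PT, 11878 in daidzein, 7517 in PT and 6819 in PBS. Its differences were 1.09 for daidzein+PT over PT and 0.80 for daidzein over PBS. Hist1h2bq was dim, with 84.4 in daidzein+PT, 60.2 in daidzein, 33.9 in PT and 28.8 in PBS. Its 1.32 and 1.06 shrank to 0.69 and 0.33 with normexp, a background correction that compresses low signals. Hist1h2bm stood at 7423 in daidzein+PT, 5830 in daidzein, 3942 in PT and 4236 in PBS.

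Hist1h2ba, which encodes an H2B known in mouse for spermatogenic cells, had a probe well above background in these cultures. That probe starts at base 156 of the transcript, and binding to it by other H2B mRNAs was not tested. Hist1h2ba stood at 5358 in daidzein+PT, 4220 in daidzein, 2762 in PT and 2783 in PBS. By this probe it was higher with daidzein and level between PT and PBS. Hist1h2aa, the testis H2A gene beside it, had 165 in daidzein+PT, 169 in daidzein, 132 in PT and 136 in PBS. Of 8 male germ cell markers, 2 were well above background on all 4 arrays (Prm1 and Prm2, with signals of 20.1 to 35.6), Sycp3 was so on 2 arrays, and Ddx4, Dazl, Tnp1, Tnp2 and Stra8 on none. The summed signal of the 8 was 125 in daidzein+PT, 105 in daidzein, 102 in PT and 86.1 in PBS. Its part in the Hist1h2ba values was not tested.

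Hist2h2be, a further H2B gene, differed little among the arrays, at 69.0 in daidzein+PT, 77.4 in daidzein, 77.7 in PT and 77.5 in PBS. Over the 8 H2B genes the median was 0.80 for daidzein+PT over PT and 0.43 for daidzein over PBS, with 6 of 8 above 0 in each. The exceptions in both were Hist2h2be and Hist2h2bb.

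H2A genes went both ways. Hist2h2aa1 and the dim Hist1h2ac were at least 1.5-fold higher in daidzein+PT over PT, and Hist1h2ab was as much lower in daidzein over PBS. With normexp Hist1h2ac fell from 0.62 to 0.27 in daidzein+PT over PT and from 0.40 to 0.01 in daidzein over PBS. Hist2h2aa1 stood at 27608 in daidzein+PT, 22423 in daidzein, 13338 in PT and 13764 in PBS, which gave 1.05 for daidzein+PT over PT and 0.70 for daidzein over PBS. Most of its probe lies beyond the stem-loop, as its printed stretch shows. Hist1h2ab, whose probe ends within the stem-loop, had 2515 in daidzein+PT, 2301 in daidzein, 3141 in PT and 3480 in PBS. Both daidzein arrays were lower there, by log2 differences of -0.32 with PT and -0.60 without.

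The H2A probes at the stop codon read high, from 31056 in Hist1h2an to 63527 in Hist1h2ah on the PBS array. Their differences ran from -0.42 to 0.06 in daidzein over PBS, where Hist2h2aa2 was the highest. In daidzein+PT over PT they ran from -0.01 to 0.43. Hist1h2ah stood at 68308 in daidzein+PT, 54607 in daidzein, 57061 in PT and 63527 in PBS. Hist1h2af stood at 62773 in daidzein+PT, 52992 in daidzein, 51538 in PT and 57648 in PBS. In both the daidzein+PT array was the highest while daidzein alone was below PBS. Hist1h2ag, whose probe overlaps these, stood at 35993 in daidzein+PT, 30287 in daidzein, 36458 in PT and 40485 in PBS. In daidzein over PBS Hist1h2ag and Hist1h2an were both at -0.42, while with PT they were at -0.02 and -0.01. Over the 6 stop-codon probes the median was 0.26 for daidzein+PT over PT and -0.12 for daidzein over PBS. Over all 12 H2A genes it was 0.26 and -0.11.

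H3 genes showed the smallest differences. Hist1h3d had 27998 in daidzein+PT, 28020 in daidzein, 24458 in PT and 27131 in PBS. Hist1h3c had 1083 in daidzein+PT, 1228 in daidzein, 1131 in PT and 1143 in PBS, and Hist1h3i had 80.9 in daidzein+PT, 84.0 in daidzein, 75.7 in PT and 88.0 in PBS. The one H3 member at 1.5-fold or more with PT present was Hist2h3c2-ps, named as a pseudogene on the array and H3c15 in RefSeq, which has a distal probe. It stood at 1505 in daidzein+PT, 1223 in daidzein, 845 in PT and 815 in PBS. Over the 7 H3 genes the median was 0.14 for daidzein+PT over PT and -0.07 for daidzein over PBS.

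The linker histones ran lower with daidzein, except Hist1h1c. Hist1h1b, now H1f5, had 862 in daidzein+PT, 708 in daidzein, 979 in PT and 1079 in PBS. Hist1h1e, now H1f4, had 1549 in daidzein+PT, 1390 in daidzein, 1730 in PT and 1864 in PBS. Hist1h1a was dim, with 24.4 in daidzein+PT, 28.4 in daidzein, 31.5 in PT and 37.5 in PBS, and its difference with PT, -0.37, became 0.00 with normexp. In all 3 both daidzein arrays were below both arrays without it. Hist1h1c, whose probe is distal, had 7393 in daidzein+PT, 6281 in daidzein, 5686 in PT and 5695 in PBS. Over the 4 H1 genes the median was -0.17 for daidzein+PT over PT and -0.41 for daidzein over PBS.

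**Figure D2:**
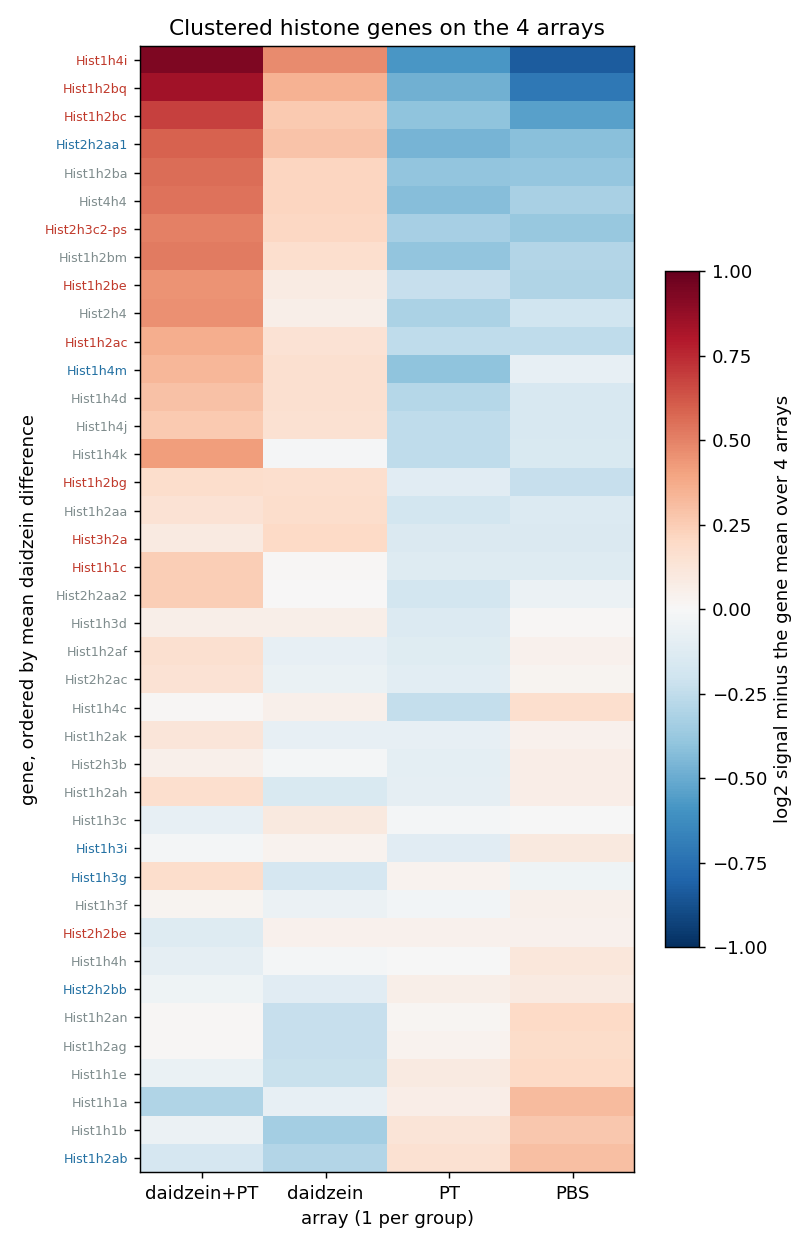
Heatmap of the 40 clustered histone genes (down the page, ordered by the mean of their daidzein differences) on the 4 arrays, coloured by log2 signal minus the gene's mean over the arrays; red is above that mean and blue below it. Gene names are red for a distal probe, blue for one holding the stem-loop motif and grey for others. Hist1h4i at the top is highest in daidzein+PT and lowest in PBS, and Hist1h2ab at the bottom is highest in PBS.

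**Figure D3:**
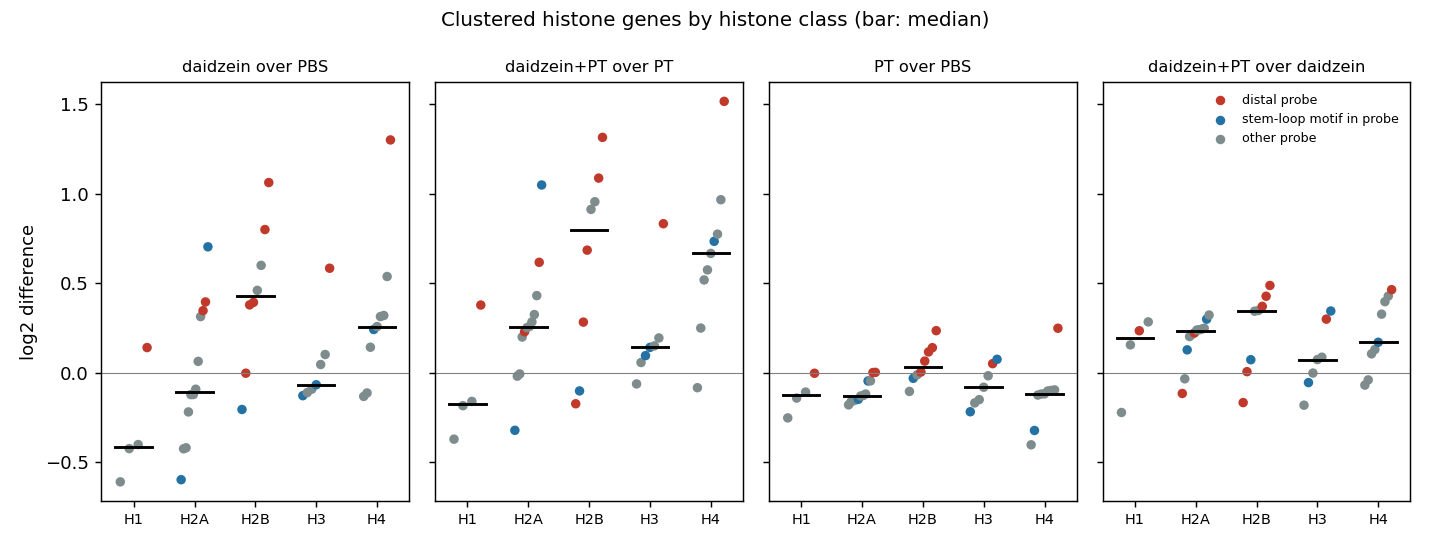
Log2 differences of the 40 genes by histone class, 1 panel per comparison and 1 point per gene, with a bar at the class median and colour for the place of the probe. The H2B median is 0.80 in daidzein+PT over PT and 0.43 in daidzein over PBS, and the H1 median is -0.17 and -0.41.

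The place of the probe went along with the daidzein difference. Over the 10 distal probes the median was 0.65 for daidzein+PT over PT and 0.39 for daidzein over PBS, with 9 of 10 above 0 in each. Over the 30 members with any other probe it was 0.23 with PT, with 21 above 0, and -0.09 without, with 13 above 0. The medians over all 18256 genes were -0.01 and -0.03. Class and probe place overlap, since 5 of the 8 H2B probes and 1 of the 9 H4 probes are distal. Signal and probe place overlap as well. Of the 13 members in the dimmest tertile, where the SD was 0.33, Hist1h2ac, Hist1h2be, Hist1h2bg, Hist1h2bq and Hist2h2be had distal probes. Hist1h2ba, Hist1h2bm and Hist4h4 were higher with daidzein although their probes are not distal. For 6 members, polyadenylated transcripts are known for the human namesake, and these had medians of 0.52 and 0.27. They were Hist2h2aa1, Hist2h2aa2 and the distal Hist1h1c, Hist1h2ac, Hist1h2bc and Hist2h2be, so these medians share values with the distal ones.

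**Figure D4:**
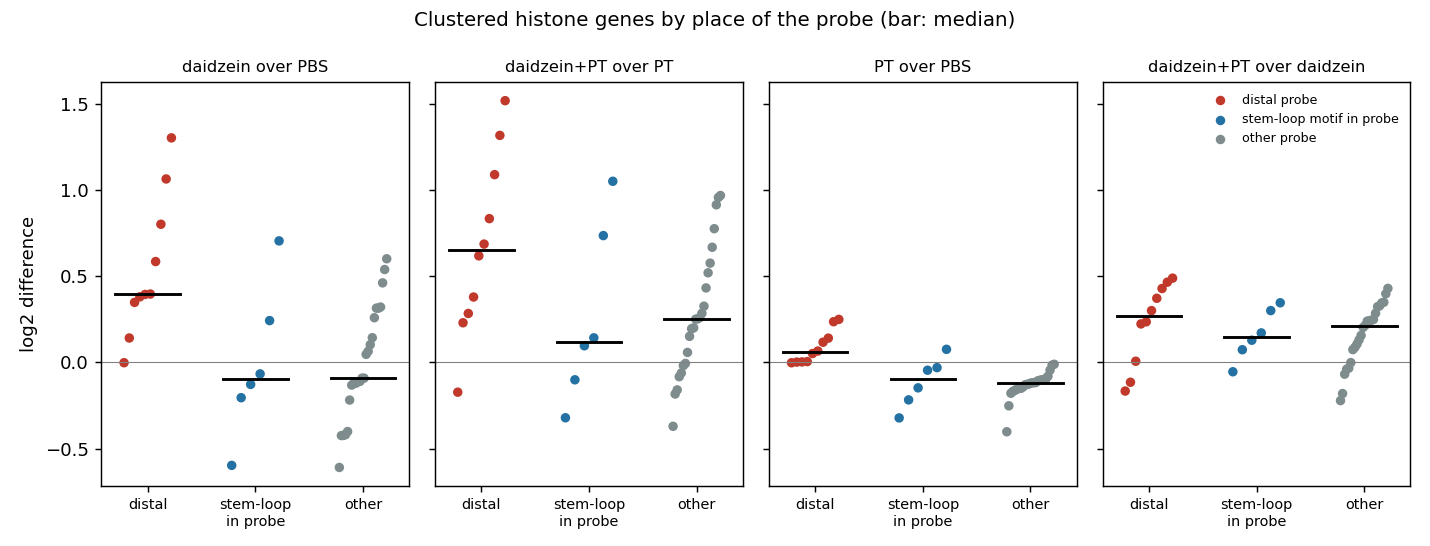
Log2 differences of the 40 genes by place of the probe, 1 panel per comparison, with 1 point per gene and a bar at the median. Distal probes have medians of 0.65 and 0.39 in the pair of daidzein comparisons, and all 24 probes that are neither distal nor motif-bearing lie below 0 in PT over PBS.

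Differences with PT were small. No member reached 1.5-fold in either direction in PT over PBS, where 2.31% of all genes were that much higher and 0.553% that much lower. The same held in daidzein+PT over daidzein, where 2.7% and 0.816% were. The signs differed between the pairs. In PT over PBS 30 of 40 members were below 0 (56.1% of all genes) and 10 above 0 (43.9%), with a median of -0.10, while in daidzein+PT over daidzein 31 of 40 were above 0 (53.3% of all genes) and 9 below 0 (46.7%), with a median of 0.22. Probe place split the members in PT over PBS as well: 9 of the 10 distal probes were above 0, with a median of 0.06, and 29 of the 30 others below 0, with a median of -0.12. In daidzein+PT over daidzein the distal median was 0.27 and that of the others 0.19. The sign was the same in both PT pairs for 15 of 40 members, against 55.0% of all genes, and in both daidzein pairs for 30 of 40, against 68.1%. The members' median interaction was 0.27, with 36 of 40 above 0. Over all genes the median interaction was 0.04, with 10590 of 18256 above 0. Among the members the interaction was highest in Hist1h4k and Hist2h4 at 0.52 each, and lowest in Hist2h2be at -0.17 and Hist1h3c at -0.16. Both PT arrays lay in row 2 of the slide and both arrays without PT in row 1, so PT and slide row cannot be told apart.

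Set against PBS, the combination gave the widest spread. In daidzein+PT over PBS 11 of 40 members were at least 1.5-fold higher, against 5.78% of all genes, and 1 of 40 (Hist1h1a, at -0.62) was as much lower, against 2.95%. There 26 of 40 were above 0 (45.2% of all genes) and 14 below 0 (54.8%). Hist1h4i was 3.40-fold higher. The median was 0.23, beside -0.03 over all genes.

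Of the 9 clustered histone genes outside the 40, Hist1h1t was well above background on 3 arrays and Hist1h2bp on 1. Hist1h1d, Hist1h2ae, Hist1h2bb, Hist1h3a, Hist2h2ab, Hist3h2ba and Hist3h2bb-ps were so on 0. The dimmest member just inside the rule was Hist1h2ac, with 32.2 in daidzein+PT, 27.6 in daidzein, 21.0 in PT and 20.9 in PBS. Just outside it, by the number of arrays with the flag, Hist1h1t had 29.4 in daidzein+PT, 23.0 in daidzein, 185 in PT and 12.6 in PBS. Its log2 difference for daidzein+PT over PT, -2.65, became -1.35 with normexp.

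Promoters were read from the RefSeq table of GRCm38.p6, as the 250 bases before each start site, for the 36 members it holds. Each motif was searched on both strands, and none of the 4 contains another. CCAAT was in 29 of 36 (80.6%), against 33.8% of 32851 promoters, and it was in all 12 H2A, all 6 H2B and all 4 H1 promoters but in 2 of 8 H4. The octamer ATTTGCAT was in 10 of 36 (27.8%), against 526 of the 32851 promoters. These 10 were 6 H2A and 4 H2B genes. TATAAA was in 16 (44.4%, against 12.4%). AAACACA, known from H1 promoters, was in 7 (19.4%, against 6.25%), of which 3 were H1. A match describes letters and is not a bound site. The promoters of a high H4, a high H2B and a low H1 gene show the contrast in motifs, with the motifs in capitals.
Hist1h4i at chr13:22041363-22041612 on the minus strand: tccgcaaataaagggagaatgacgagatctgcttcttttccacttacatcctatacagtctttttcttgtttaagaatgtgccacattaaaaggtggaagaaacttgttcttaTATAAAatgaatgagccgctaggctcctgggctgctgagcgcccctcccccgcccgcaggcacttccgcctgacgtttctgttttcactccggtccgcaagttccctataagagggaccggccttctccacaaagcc
Hist1h2bm at chr13:21721794-21722043 on the plus strand: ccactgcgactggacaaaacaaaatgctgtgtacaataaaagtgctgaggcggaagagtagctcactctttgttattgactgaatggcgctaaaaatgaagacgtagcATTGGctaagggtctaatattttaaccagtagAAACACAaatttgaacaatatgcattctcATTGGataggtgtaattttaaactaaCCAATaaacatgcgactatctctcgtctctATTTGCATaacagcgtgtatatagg
Hist1h1b at chr13:21780626-21780875 on the minus strand: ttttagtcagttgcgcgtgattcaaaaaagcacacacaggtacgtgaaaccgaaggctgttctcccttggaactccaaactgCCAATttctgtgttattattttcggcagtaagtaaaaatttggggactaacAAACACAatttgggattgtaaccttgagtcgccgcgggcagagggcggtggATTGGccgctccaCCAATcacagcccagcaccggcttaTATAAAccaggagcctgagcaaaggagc
The Hist1h4i promoter holds TATAAA alone. That of Hist1h2bm holds CCAAT at 3 places, AAACACA and ATTTGCAT, and that of Hist1h1b holds CCAAT at 3 places, AAACACA and TATAAA.

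Among lists of genes that work with histones or in the cell cycle, the S phase and mitosis lists had the lowest medians with daidzein, beside medians over all genes of -0.01 with PT and -0.03 without. Of 26 S phase and replication genes, 6 were above 0 in daidzein+PT over PT (48.4% of all genes), with a median of -0.13, and 0 in daidzein over PBS (43.9% of all genes), with a median of -0.24. Uhrf1, which binds hemimethylated DNA at replication, was at -0.34 with PT and -0.57 without, and Mcm3, of the replicative helicase, at -0.32 and -0.50. The 13 mitosis genes that passed the flag had medians of -0.21 and -0.47. The 24 genes of histone mRNA processing and transcription that passed had medians of -0.03 and -0.08, near those of all genes. Among them Slbp was at 0.10 and 0.05. The list's largest mean daidzein differences in size were in Cpsf2, at -0.41 and -0.37, and Ccne1, at 0.47 and 0.29. Next came Zfp473 at -0.15 and -0.24 and Cdk2 at -0.13 and -0.19. The 20 chaperone genes had medians of -0.07 and -0.10. With PT 16 of them were below 0 (51.6% of all genes), and without it 12 were (56.1%). Asf1b, a chaperone of H3 and H4, was at 0.60 and 0.23. Chaf1a was at -0.20 and -0.36, Chaf1b at -0.19 and -0.34, and Hjurp at -0.16 and -0.32. The 11 replication-independent histone variants had medians of -0.01 and -0.11. Cenpa, the centromeric H3, was at -0.10 and -0.54.

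All 8 adipocyte markers and all 8 markers of preadipocytes or fibroblasts were well above background on every array. The summed adipocyte signal was 432151 in daidzein+PT, 265132 in daidzein, 114617 in PT and 60626 in PBS. The preadipocyte or fibroblast markers summed to 430805 in daidzein+PT, 415283 in daidzein, 494758 in PT and 495837 in PBS. Of 5 macrophage markers on the array 2 were well above background throughout (Cd68 and Csf1r), Lyz2 on 3 arrays, and Ptprc and Emr1 on none; the 5 summed to 927 in daidzein+PT, 962 in daidzein, 891 in PT and 910 in PBS. The S phase list summed to 54835 in daidzein+PT, 52236 in daidzein, 59610 in PT and 62102 in PBS, and the mitosis list to 15628 in daidzein+PT, 13079 in daidzein, 17713 in PT and 18488 in PBS. The adipocyte sum was thus higher, and the preadipocyte, S phase and mitosis sums lower, on both arrays with daidzein, and their part in the histone differences was not tested. Between 49.7% and 51.4% of spots were well above background, no spot was saturated, and replicate spots of a probe had an SD of about 0.06.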

How the data were processed

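Total RNA of the 4 groups, 1 array each, was amplified and labelled with Cy3 and read on single-colour Agilent mouse arrays, per the labels' protocols. The deposited scanner files hold the processed intensity of each spot, made with Feature Extraction 10.7.1.1 per the file headers, while the submitters' processing notes name 9.5.1.1. The series' deposited value table holds normalized intensities, which were put on the log2 scale here. Their normalization is not given in the sources used here, and they served as an alternative only. Control spots and outlier spots (106 to 173 per array) were left out, spots of a probe were averaged, and log2 processed intensity was centred on each array's 75th percentile and put back on the common mean. The brightest probe stood for a gene, and a gene had to be flagged well above background on all 4 arrays. Gene symbols were brought up to date through RefSeq, 52 of 55 probes by accession and 3 by symbol.

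No test was made, and having 4 arrays in all limits the precision. The members, lists and rules were chosen with earlier results of these data known. Genes were named by rank: the 2 brightest of each class, the 5 lowest and 5 highest with daidzein, the 3 lowest and 3 highest with PT, the 2 most extreme interactions each way, the testis-specific members, and up to 4 genes of each related list; Hist1h2ac, Hist2h3c2-ps, Hist4h4, Slbp and the distal probes were named after their values were seen. The alternatives were normexp background (offset 50), quantile, median and cyclic loess normalization, the series table, no flag filter, brighter members, and the mean of a gene's probes. R 4.3.3 with limma 3.58.1 and Python 3.11.15 with pandas 2.3.3 were used, and the steps were tested on simulated data.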

Additional observations from a re-analysis of the deposited data

Results flagged for a closer look

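Hist1h1t, the testis H1 gene, lies outside the 40 because its probe was not well above background on the PBS array. Its scaled signal was 29.4 in daidzein+PT, 23.0 in daidzein, 185 in PT and 12.6 in PBS. The PT array was 12.4-fold above PBS, counted against the dimmest signal that is well above background there. It was 6.29-fold above daidzein+PT and 8.05-fold above daidzein. These folds depend on the background correction: with normexp the log2 difference was 1.77 for PT over PBS, in place of 3.88, and -1.35 for daidzein+PT over PT, in place of -2.65. The result rests on 1 probe and 1 array.

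The members' median PT difference was 0.32 higher with daidzein present than without it, negative without daidzein and positive with it. This difference between the pairs was not tested. Members with opposite signs in the PT pairs, each beyond 1 SD of a difference between 2 arrays at their signal, numbered 10 of 40, against 3.31% of all genes. The rule itself sets the least size of their interactions, which were 0.43 in Hist1h1b, 0.28 in Hist1h2ab, 0.41 in Hist1h2af, 0.40 in Hist1h2ag, 0.48 in Hist1h2ah, 0.32 in Hist1h2ak, 0.42 in Hist1h2an, 0.37 in Hist2h2aa2, 0.34 in Hist2h2ac and 0.52 in Hist2h4. Of these, Hist1h2af, Hist1h2ah and Hist1h2ak also met that rule in the pair of daidzein comparisons, as did 2.16% of all genes. The probes of 6 of the 10 end at an H2A stop codon.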

How the results depend on the processing

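With 1 array per group every alternative kept all 4 arrays, and signal over background limits the dim members. No paired analysis was possible because the groups share only replicate number 1. The pairs of comparisons matched on the other agent are those reported, with their interaction as the gauge of spread and no p-value. Of 210 recomputed medians and counts of the members 183 stayed close to the reported value, as did 180 of 210 medians by class or probe place; of 1230 single-gene values 95 moved and 1 reversed, and the cause was not tested.

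Scaling to the median moved the median of all genes to -0.27 in PT over PBS, -0.12 in daidzein+PT over daidzein and -0.22 in daidzein+PT over PBS. With it the members' median was -0.35 in PT over PBS, 0.084 in daidzein+PT over daidzein, 0.030 in daidzein+PT over PBS and 0.38 for the interaction; 1 member was 1.5-fold lower in PT over PBS and 2 in daidzein+PT over PBS, and 16 were below 0 in daidzein+PT over daidzein. The H2A median in daidzein+PT over PBS reversed to -0.072. The split of all genes at 1.5-fold in PT over PBS, 422 higher and 101 lower, became 206 and 541 with it, 304 and 274 with quantile normalization, 302 and 269 in the series table, and 160 and 15 with normexp.

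Among the 24 brighter members, the median in daidzein+PT over PBS was 0.12; 8 were 1.5-fold higher in daidzein+PT over PT, 7 were higher and 0 lower in daidzein+PT over PBS, and 3, 11 and 8 were below 0 in daidzein+PT over daidzein, daidzein over PBS and daidzein+PT over PBS. Without the 6 H2A stop-codon probes, a choice made after seeing the data, the medians were 0.19 in daidzein over PBS and 0.33 in daidzein+PT over PBS. With no flag filter, 2 of 49 genes were 1.5-fold higher and 1 lower in PT over PBS. In daidzein+PT over daidzein 2 were higher and 1 lower, while 4 were lower in daidzein over PBS and 2 in daidzein+PT over PT. Shares over all brighter genes and all unfiltered genes were not computed, so the counts of brighter members and unfiltered genes have no like background. With cyclic loess 1 member was lower in daidzein over PBS and 0 in daidzein+PT over PBS, and with normexp 0 and 0. With the mean of a gene's probes 1 member was 1.5-fold higher in daidzein+PT over daidzein, Hist1h4i was at 1.18 with PT and 0.83 without, and Hist2h4 reversed to -0.059 in daidzein+PT over PBS.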
